A study of Vitis vinifera with 12 samples.

Results

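The binding events of 2 grapevine (Vitis vinifera) NAC transcription factors, CARPO (NAC60) and VvNAC33 (NAC33 below), were compared on young leaf DNA in libraries whose titles carry the number 500, given without a unit. All 14786 CARPO events and all 5870 NAC33 events of the deposited lists were taken, 20656 of the 44889 events in the 7 lists of the series. The assay was DAP-seq (DNA affinity purification sequencing), in which an affinity-tagged factor made outside the cell is mixed with fragmented, protein-free genomic DNA and the retained fragments are sequenced. Both groups shared the HALO tag, translation in rabbit reticulocyte lysate and DNA of the cultivar Syrah, from leaf material that was pooled over fruiting cuttings. Each list was called from 2 libraries together, so there was 1 list per factor and no spread between replicate lists. A further 5 lists, each from 1 library with the same tag, lysate and cultivar, served as readouts that the partner rule does not use. They are NAC03 labelled 500 on leaf DNA (4277 events), CARPO (9170) and NAC33 (6298) labelled 1000 on leaf DNA, and CARPO (3757) and NAC33 (731) labelled 500 on berry DNA, for which the growth text of the labels names leaf. A list of the factor that defines a partner is not independent of the partner rule, since the same factor sets the split. The libraries with HALO-GST in place of a factor, the control samples of the series, were not analysed here. The assay shows which fragments a factor can hold on naked DNA, not occupancy in leaf cells, where chromatin and partner proteins are present.

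NAC proteins are a family of plant transcription factors that share a conserved DNA-binding domain near the start of the protein and bind as dimers. Many family members recognise related short sequence words. The title of the series names CARPO as a controller of organ maturation and fruit ripening, and NAC33 is known in grapevine for a role in leaf de-greening and growth arrest. No genome of the build of the event coordinates was used here, so no site sequence or neighbouring gene is given.

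The lists differed in length. CARPO had 2.52 times as many events as NAC33. Event strength, a deposited value taken to rank events within a list and not comparable between lists, ran from 15 to 11804.7 in the CARPO list with a median of 29, and from 17 to 13535 in the NAC33 list with a median of 27.7. The median −log10 q-value was 4.09 for CARPO and 2.78 for NAC33, with the lowest at 2 in both lists. The 2 lists thus ended at the same deposited threshold, while the typical NAC33 event lay nearer to it. A −log10 q-value below 2.1 was found for 499 CARPO events (3.37%) and 490 NAC33 events (8.35%). Read totals were not recorded, so sequencing depth is unknown and a missing partner can be an event just under the threshold.

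Most events of either factor stood alone, and a minority fell at the same places. A NAC33 event lay within 100 bp of 1293 CARPO events (8.74%, exact Clopper-Pearson 95% interval 8.29% to 9.21%). A CARPO event lay within 100 bp of 1240 NAC33 events (21.1%, 20.1% to 22.2%). Positions within 100 bp of a NAC33 event made up 0.242% of the 486 Mb spanned by the lists, and those within 100 bp of a CARPO event 0.604%. Both partner shares therefore lay far above the share of sequence covered, a description with no test, since each factor had 1 list. The gap between the 2 shares follows from list length, because the pairing was nearly one to one (below), and lists of equal length then give nearly equal shares. When the CARPO list was limited to its strongest 5870 events, 14.2% of CARPO events and 13.7% of NAC33 events had a partner. With a stricter −log10 q-value limit of 4 the shares were 5.05% of 7758 CARPO events and 31.2% of 1212 NAC33 events.

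The pairing was nearly one to one. There were 1236 pairs in which each event was the nearest of the other factor. A CARPO event had at most 2 NAC33 events within 100 bp, and 6 had that many. A NAC33 event likewise had at most 2 CARPO events there, and 59 did. The rest of the NAC33 list lay farther off, and the median NAC33 event was 6217.5 bp from the nearest CARPO event. The median CARPO event was 19586 bp from the nearest NAC33 event. No CARPO event lay within 1000 bp of 4139 NAC33 events (70.5%), and no NAC33 event within 1000 bp of 12798 CARPO events (86.6%).

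Partner events fell into a sharp class and a broad class of distances. The called positions were identical for 365 NAC33 events, 29.4% of those with a partner. At any single offset from 1 to 30 bp on either side there were between 2 and 14. The other partners were spread around the position, 465 with the CARPO event at the lower coordinate and 410 at the higher. Counted over all pairs of events, the density was 160 per 10 bp at 1 to 25 bp, 41.6 at 76 to 100 bp, 24.5 at 101 to 200 bp and 10.1 at 201 to 300 bp. It was 9.70 per 10 bp at 301 to 500 bp and 6.28 at 501 to 1000 bp, so it was still falling at the largest distances counted. The limit of 100 bp thus lay on the slope of this curve, with 28 NAC33 events at 91 to 100 bp and 31 at 101 to 110 bp from a CARPO event.

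**Figure D1:**
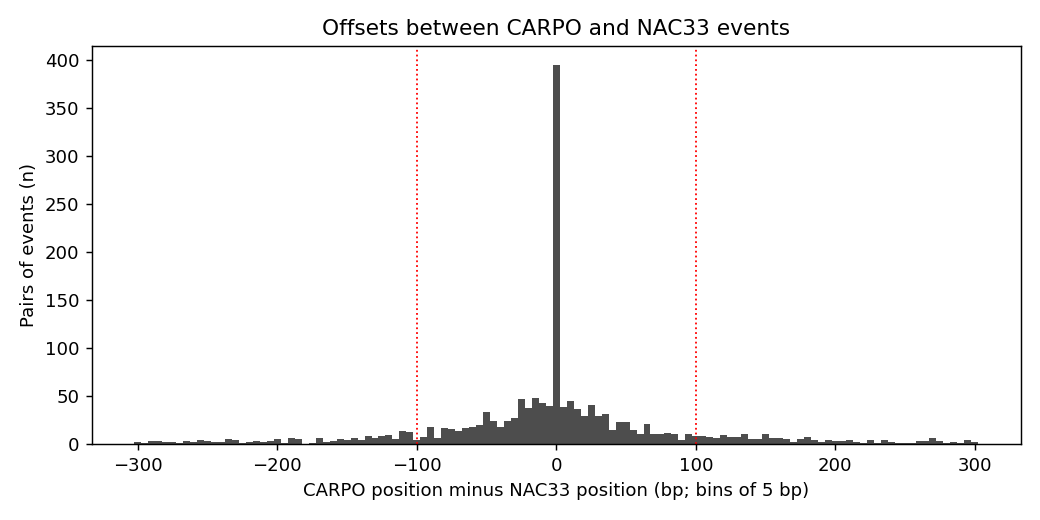
Number of pairs of events (y axis) by the CARPO position minus the NAC33 position in bp (x axis, bins of 5 bp), with the 100 bp limit as dotted lines. A single bin at the centre holds the 365 identical positions and stands above a broad mound that thins out beyond 100 bp.

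Pairs at identical positions had a median strength of 42.0 in the CARPO list and 32.9 in the NAC33 list. The medians were 51.5 and 34.0 for pairs 4 to 10 bp apart, and 43.5 and 33.0 for pairs 11 to 30 bp apart. For pairs 61 to 100 bp apart the medians were 39.0 and 29.95. The share of NAC33 events that recurred in the NAC33 list labelled 1000 was 75.3% (95% interval 70.6% to 79.7%) at identical positions, 61.4% (55.6% to 67.0%) at 11 to 30 bp and 54.9% (46.9% to 62.6%) at 61 to 100 bp. At 1 to 3 bp it was 62.8% (46.7% to 77.0%) and at 4 to 10 bp 72.1% (63.3% to 79.9%), both overlapping the interval at identical positions. At 31 to 60 bp it was 59.7% (53.3% to 65.8%). Recurrence was thus lower in each class from 11 to 100 bp than at identical positions, with intervals that did not overlap. The median strengths were lower at 61 to 100 bp but not at 11 to 30 bp. Other lists showed no peak at identical positions. Partners in CARPO labelled 1000 were found for 64.7% there and 70.5% at 4 to 10 bp, and NAC03 partners for 67.1% and 68.9%.

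Sharing rose with strength in both lists, each divided by strength into 5 classes of equal size. The strongest class of CARPO events had a NAC33 partner in 19.2% of cases (95% interval 17.8% to 20.7%), and the weakest class in 4.50% (3.78% to 5.31%). For NAC33 the strongest class had a CARPO partner in 35.2% (32.4% to 38.0%), and the weakest class in 10.7% (9.02% to 12.6%). In both lists the share fell at each step from the strongest class to the weakest. The median strength of CARPO events with a NAC33 partner was 42.3 (interquartile range 27 to 77.7), against 28.8 (22 to 40.9) without one. For NAC33 events the medians were 32.0 (25.2 to 41.35) with a CARPO partner and 26.9 (22 to 33) without. Events at the lowest strength of the list, 15 for CARPO and 17 for NAC33, occurred both with and without a partner. The highest strength was 5151.2 with a partner and 11804.7 without for CARPO, and 13535 with a partner and 1492 without for NAC33. Events with a partner carried 14.4% of the summed strength of the CARPO list and 32.9% of that of the NAC33 list.

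**Figure D2:**
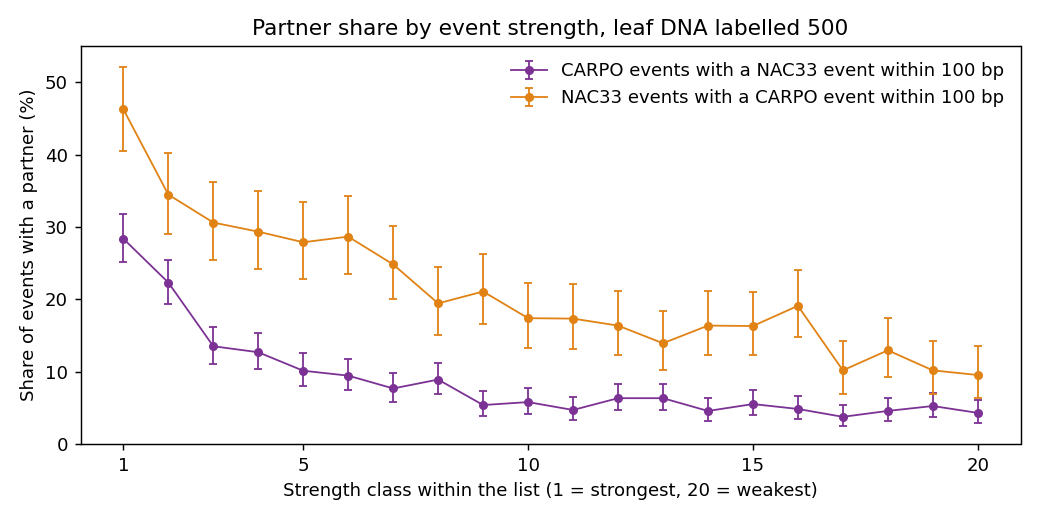
Share of events with a partner of the other factor within 100 bp (y axis, %) in 20 strength classes of each list (x axis, strongest first), with exact 95% intervals that cover counting error. The CARPO curve starts at 28.4% and ends at 4.33%, and the NAC33 curve starts at 46.3% and ends at 9.56%.

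The very top of the lists broke this pattern for CARPO. Of its 100 strongest events 18 had a NAC33 partner (95% interval 11.03% to 26.95%). The next 400 had 126, or 31.5% (27.0% to 36.3%), which is above the upper bound for the top 100. Without the 20 chr00 events among the top 100, the share was 17.5% (9.91% to 27.6%), and 35.2% (30.1% to 40.6%) for the next 400. None of the 4 strongest CARPO events and 3 of the 10 strongest had a NAC33 partner. The strongest NAC33 events behaved in the other way. Of the top 100 NAC33 events 53 had a CARPO partner (42.8% to 63.1%), of the next 400 there were 157 or 39.25% (34.4% to 44.2%), and all of the 4 strongest had one.

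Most of the 100 strongest CARPO events were found in other lists, but less often than those at ranks 101 to 1000. A NAC03 event lay within 100 bp of 70 of the 100 strongest CARPO events (95% interval 60.02% to 78.76%). In the CARPO list labelled 1000, 81 of them recurred (71.9% to 88.2%). Among ranks 101 to 500 the NAC03 share was 85.5% (81.7% to 88.8%) and the recurrence 86.0% (82.2% to 89.2%). Among ranks 501 to 1000 they were 77.6% (73.7% to 81.2%) and 97.2% (95.3% to 98.5%). At ranks 1001 to 3000 they were 44.15% and 89.45%, and at ranks 3001 to 14786 12.7% and 35.9%. A lower share at the very top than at ranks 101 to 1000 was thus not seen for NAC33 alone. For recurrence, however, the interval of the top 100 overlapped that of ranks 101 to 500. For NAC03 it overlapped that of ranks 501 to 1000. These top CARPO events were also often close to each other, with 42 of the 100 lying within 500 bp of another CARPO event, against 11.7% of all CARPO events. For NAC33 28 of the top 100 lay within 500 bp of another NAC33 event, against 4.77% of all NAC33 events.

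The strengths of the 2 members of a pair were loosely related. Across the 1236 mutual pairs, Spearman's rho between the strengths was 0.36, and 0.34 for the 1196 pairs on numbered chromosomes. This is a description across sites, which share the DNA, the build and the event caller. In 637 pairs (51.5%) both events ranked in the upper 50% of their list, and in 177 (14.3%) both ranked in the lower 50%. The mixed pairs were 240 with a high CARPO and a low NAC33 event and 182 with the reverse. These limits of 50% are those of the whole lists, and paired events were already skewed to the strong side of both. The CARPO event ranked in the lower 50% in only 359 pairs, and the NAC33 event in 417. The share of 51.5% is therefore not by itself a sign that the 2 ranks go together. When both lists were limited to their 100 strongest events, 18 NAC33 events had a CARPO partner. With 1000 each, 141 did (14.1%, 95% interval 12.0% to 16.4%).

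The pair with the best mean rank lay on chromosome 13, with CARPO at 12023114 (rank 5, strength 5151.2) and NAC33 at 12023108 (rank 1, strength 13535). The next lay on chromosome 1, with CARPO at 12468910 (rank 14, strength 2547) and NAC33 at 12468921 (rank 3, strength 1983.6). On chromosome 3 both factors were called at position 1949733, as rank 20 for CARPO (strength 2043.3) and rank 2 for NAC33 (strength 3129). These 3 pairs join events from the top 20 of both lists at offsets of 6, -11 and 0 bp (CARPO minus NAC33). The fourth pair lay on chr00, with CARPO at 10871250 (rank 27) and NAC33 at 10871240 (rank 14). The fifth lay on chromosome 10, with CARPO at 4605374 (rank 10) and NAC33 at 4605387 (rank 24). A NAC03 event lay within 100 bp of the CARPO event in all 5 pairs.

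Some of the strongest events of each factor had no event of the other within 1000 bp in the lists compared. The 2 strongest CARPO events, on chromosome 9 at 20833339 (strength 11804.7) and on chromosome 11 at 19741325 (strength 9519.4), were 50474 and 65727 bp from the nearest NAC33 event. The third, on chromosome 5 at 11512459 (strength 6475), was 21342 bp away. All 3 ranked among the 10 strongest CARPO events labelled 1000 and had a NAC03 event within 100 bp. These places were thus strong for CARPO in separate lists and had no event within 100 bp in either NAC33 leaf list. The nearest NAC33 event from berry DNA lay 169 bp from the third. Among NAC33 events with no CARPO event within 1000 bp, the strongest was on chromosome 13 at 1009855 (strength 1492, rank 5), 10809 bp from CARPO. It recurred at 1000 as rank 9 and had a NAC03 event 1 bp away. The next, on chromosome 14 at 13593469 (strength 592.5, rank 6), had a −log10 p-value of 9.79. It had no event within 100 bp in any other list. The third, on chr00 at 23719587 (strength 541, rank 7), lay 1126 bp from CARPO and had a NAC03 event at 2 bp. The NAC33 event on chromosome 15 at 19948088 (strength 491) recurred in both other NAC33 lists at distances of 1 and 2 bp and had no NAC03 event within 100 bp. The one on chromosome 6 at 20812990 (strength 335) also recurred in both, at 2 and 1 bp, with no NAC03 event within 100 bp.

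Pairs of unequal rank made the loose relation concrete. On chromosome 19 at 2789420 both factors were called at the same base, as rank 167 for CARPO (strength 235) and rank 4238 for NAC33 (strength 23.1). On chromosome 8 at 16385237 they again coincided, as rank 185 for CARPO and rank 3515 for NAC33. On chromosome 18 CARPO at 21529299 (rank 140) met NAC33 at 21529330 (rank 4507). The reverse case on chromosome 17 at 10927804 had rank 7611 for CARPO (strength 29) and rank 129 for NAC33 (strength 75). Identical positions were thus called where one factor ranked high and the other in the lower 50% of its list. On chromosome 8 CARPO at 16541431 (rank 11057) met NAC33 at 16541457 (rank 100), and on chromosome 7 CARPO at 2441590 (rank 13015) met NAC33 at 2441569 (rank 147).

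Events shared by CARPO and NAC33 more often had an event of NAC03, the other NAC factor of the series, than events that were not shared. A NAC03 event lay within 100 bp of 62.8% of the CARPO events with a NAC33 partner (95% interval 60.1% to 65.4%), against 17.6% (16.9% to 18.2%) of those without. In numbers, these were 812 CARPO events with a NAC33 partner and 2369 without, so most CARPO events near NAC03 were not near NAC33. For NAC33 the shares were 62.7% (59.9% to 65.4%) with a CARPO partner and 3.30% (2.81% to 3.86%) without. Positions within 100 bp of a NAC03 event made up 0.176% of the span. The differences were 45.2 percentage points in the CARPO list and 59.4 in the NAC33 list. NAC33 events away from CARPO events were therefore mostly away from NAC03 events as well, while a CARPO event without NAC33 still had NAC03 in more than 1 of 6 cases. Whether the lists were called against the same control library is not stated.

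**Figure D3:**
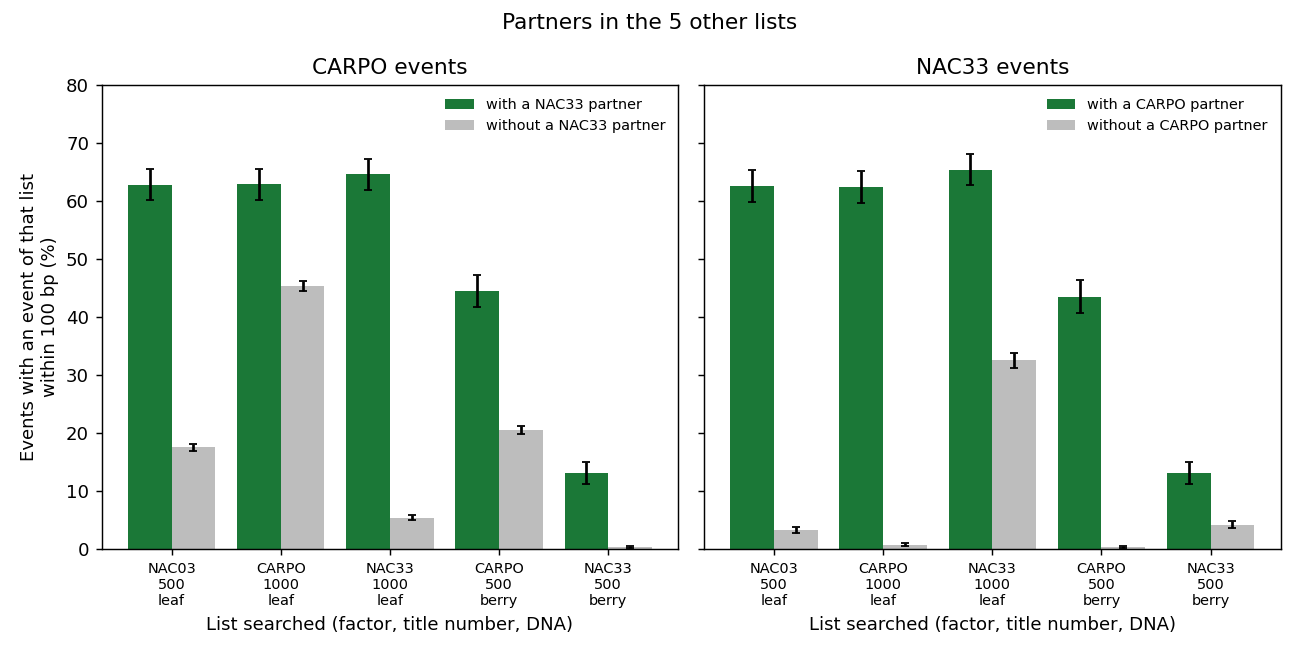
Share of CARPO events (left) and NAC33 events (right) that have an event of another list within 100 bp (y axis, %), for events with a partner of the other factor (green) and without one (grey), with exact 95% intervals for counting error. In both panels the green bars exceed the grey bars for all 5 lists. The grey bars of the NAC33 panel stay under 5% except for NAC33 labelled 1000. The NAC33 lists in the left panel and the CARPO lists in the right panel are of the factor that defines the classes. Their gaps are therefore largely built in.

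Strength did not remove the difference in NAC03 partners. In the strongest class of CARPO events the NAC03 share was 86.6% (95% interval 83.6% to 89.3%) with a NAC33 partner and 49.3% (47.3% to 51.3%) without. In the weakest class it was 25.6% (18.4% to 33.8%) with and 5.06% (4.28% to 5.94%) without. For NAC33 the strongest class had 79.2% (74.9% to 83.0%) with a CARPO partner and 6.83% (5.15% to 8.86%) without, and the weakest class 42.1% (33.3% to 51.2%) with and 1.62% (0.948% to 2.58%) without. The intervals did not overlap in any class of either list.

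Recurrence in the list of the same factor labelled 1000 behaved differently in the 2 factors. Over the whole CARPO list, 63.0% of events with a NAC33 partner recurred (95% interval 60.3% to 65.6%), against 45.4% (44.5% to 46.2%) of those without. Within classes of strength most of that gap was gone. In the second strength class 64.6% (58.5% to 70.3%) recurred with a NAC33 partner and 64.2% (62.3% to 66.0%) without. In the strongest class it was 93.1% (90.7% to 95.1%) with and 89.6% (88.3% to 90.8%) without. In the weakest class it was 8.27% (4.20% to 14.3%) with and 14.9% (13.6% to 16.2%) without. The difference between CARPO events with and without a NAC33 partner lay between -6.60 and 3.53 percentage points, and the intervals overlapped in all 5 classes. In the strongest and the weakest class they met only at their edges, and overlap does not show that the shares were equal.

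For NAC33 the gap remained at each strength. Over the whole list, 65.4% of events with a CARPO partner recurred at 1000 (95% interval 62.7% to 68.1%), against 32.5% (31.2% to 33.9%) without. In the strongest class it was 87.9% (84.4% to 90.9%) with and 68.7% (65.3% to 72.0%) without. In the weakest class it was 29.4% (21.6% to 38.1%) with and 11.5% (9.59% to 13.5%) without. The difference lay between 17.9 and 27.5 percentage points in the 5 classes, with no overlap of the intervals. The contrast between the factors itself was not tested, because each had 1 list at each title number. The list labelled 1000 came from 1 library, so title number and number of libraries cannot be told apart.

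**Figure D4:**
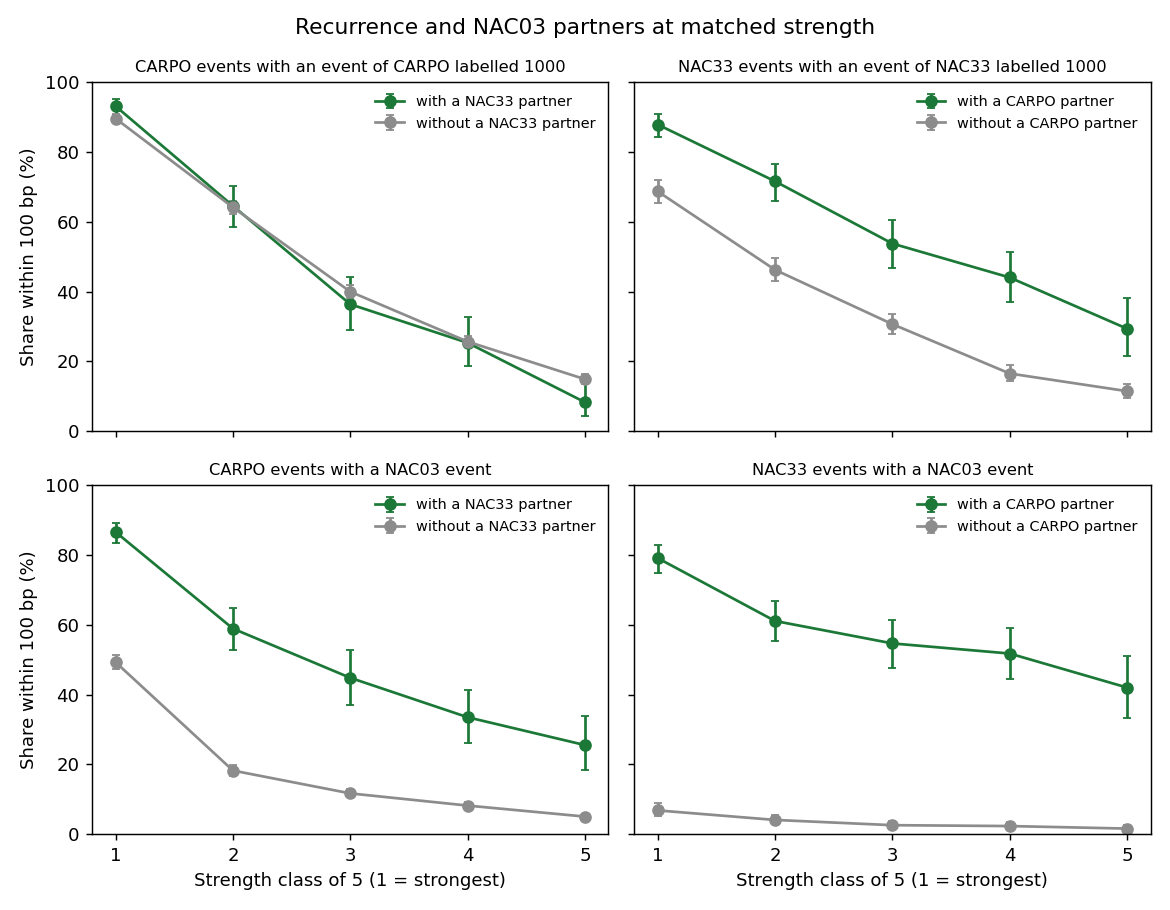
Share of events with an event of the same factor labelled 1000 (top) or of NAC03 (bottom) within 100 bp (y axis, %) by strength class (x axis, 5 classes, 1 is strongest), for CARPO (left) and NAC33 (right). Green marks events with a partner of the other factor and grey those without, with exact 95% intervals for counting error. Green and grey lie closest together in the top left panel.

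Few of the unpaired events met the other factor in another list. Of the 13493 CARPO events without a NAC33 partner, 755 (5.60%, 95% interval 5.21% to 5.997%) lay within 100 bp of an event of the NAC33 lists labelled 1000 or from berry DNA. Of the 4630 NAC33 events without a CARPO partner, 49 (1.06%, 0.784% to 1.40%) lay within 100 bp of an event of the other CARPO lists. The covered share of the span was 0.259% for NAC33 labelled 1000 and 0.370% for CARPO labelled 1000. On berry DNA too, events with a partner were found again more often than those without. Strength was not held equal in this comparison, and events with a partner were the stronger ones. Their median strengths were 42.3 for CARPO and 32.0 for NAC33, against 28.8 and 26.9 without a partner. Of the CARPO events, 44.5% with a NAC33 partner and 20.5% without had a CARPO berry event, against 0.154% of the span covered by that list. Of the NAC33 events, 13.1% with a CARPO partner and 4.23% without had a NAC33 berry event, in a berry list of 731 events that covered 0.0301% of the span.

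When both lists were limited to events that recurred at 1000, 6934 CARPO and 2317 NAC33 events remained. Among them 8.74% of CARPO events (95% interval 8.09% to 9.43%) and 24.9% of NAC33 events (23.2% to 26.7%) had a partner that also recurred. With partners taken from the whole list of the other factor, the shares were 11.7% of these CARPO events (11.0% to 12.5%) and 35.0% of these NAC33 events (33.1% to 37.0%).

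Both factors followed the same broad layout over the genome. Over 468 windows of 1 Mb on the numbered chromosomes, Pearson's r between the 2 counts was 0.71 and Spearman's rho 0.69, a description across windows that share the build and its mappable sequence. The median window held 28 CARPO and 12 NAC33 events, with ranges of 2 to 82 and 0 to 30. NAC33 events outnumbered CARPO events in 13 windows. The window with most CARPO events was 5000001 to 6000000 on chromosome 6, with 82 CARPO and 19 NAC33 events. For NAC33 it was 3000001 to 4000000 on chromosome 13, with 69 CARPO and 30 NAC33 events.

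Among chromosomes, the ratio of CARPO to NAC33 events ranged from 2.10 on chromosome 15 to 3.03 on chromosome 4. Both factors were densest on chromosome 8, with 42.8 CARPO and 15.0 NAC33 events per Mb, and sparsest among numbered chromosomes on chromosome 16, with 22.0 and 9.10. Partner shares varied between chromosomes. The share of CARPO events with a partner ran from 6.06% on chromosome 9 to 10.7% on chromosome 5. For NAC33 events it ran from 15.0% on chromosome 16 to 28.4% on chromosome 8, where the interval of 23.6% to 33.6% did not reach the 10.5% to 20.4% of chromosome 16. These 2 chromosomes were picked by the shares themselves, so the gap between their intervals is a description and not a test. They were also the sparsest and the densest in CARPO events, so the number of possible partners per Mb differed too. The sequence chr00, with 5.63% of the span, held 2.99% of CARPO events and 3.32% of NAC33 events. It carried 6.30% of the summed strength of the CARPO list and 6.28% of that of the NAC33 list. The median strength on chr00 was 32.35 for CARPO and 27.7 for NAC33, against 29 and 27.7 on the numbered chromosomes. Among the 100 strongest events, 20 of CARPO and 35 of NAC33 lay on chr00.

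**Figure D5:**
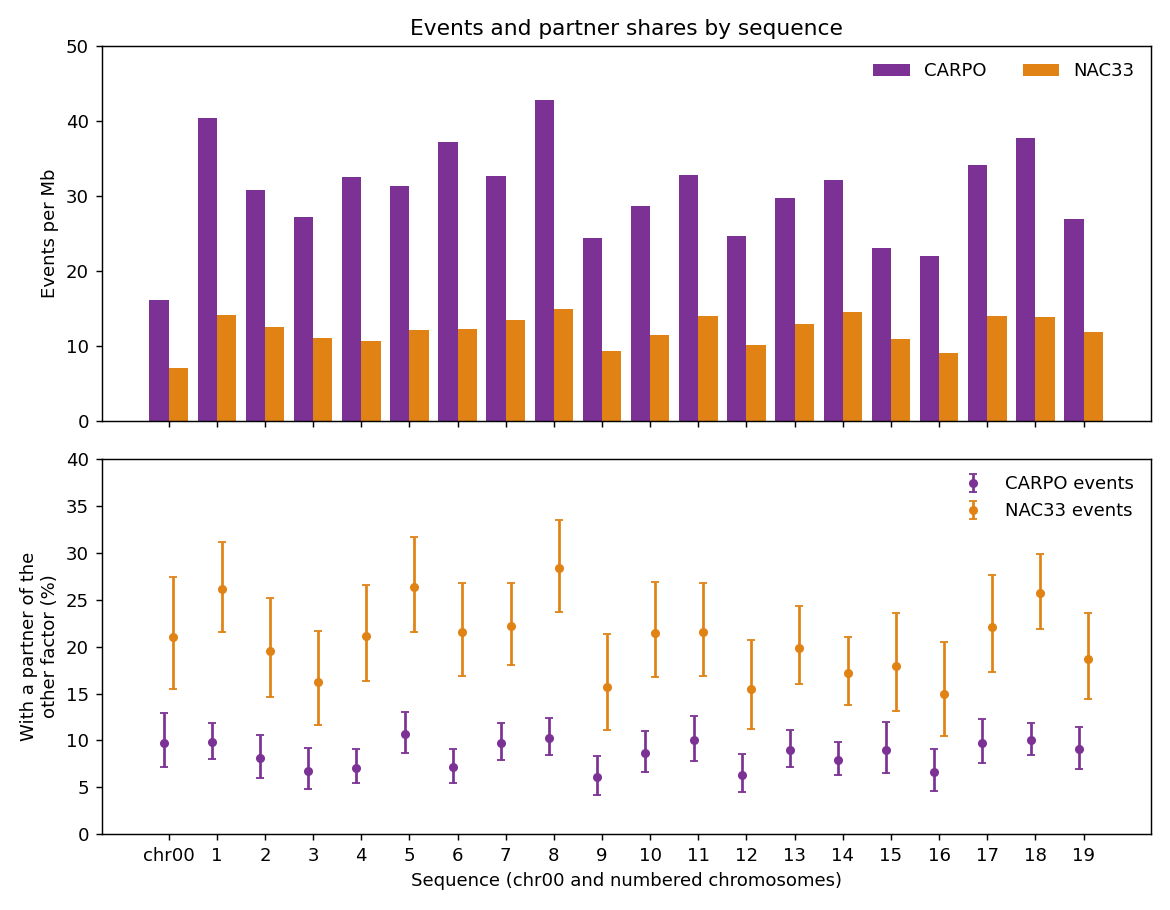
Events per Mb (top) and share of events with a partner of the other factor (bottom, %, exact 95% intervals for counting error) on chr00 and on the 19 numbered chromosomes (x axis), for CARPO and NAC33. CARPO is denser on every sequence, and both factors are densest on chromosome 8.

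CARPO events were more often close neighbours of each other. Another event of the same list lay within 500 bp of 11.7% of CARPO events (95% interval 11.2% to 12.2%) and of 4.77% of NAC33 events (4.24% to 5.35%), in lists of unequal length. The difference of 6.92 percentage points was 3.87 with the CARPO list limited to its strongest 5870 events. Among CARPO events, 21.7% (19.4% to 24.0%) with a NAC33 partner and 10.7% (10.2% to 11.3%) without had such a neighbour. For NAC33 the shares were 5.89% (4.64% to 7.35%) with a CARPO partner and 4.47% (3.89% to 5.11%) without. Close CARPO neighbours thus went with NAC33 partners, while for NAC33 the intervals overlapped. The partner rule builds in a part of this. The 2 CARPO events near each of 59 NAC33 events count both as partnered and as neighbours, while only 6 CARPO events had 2 NAC33 events there. Strength was not held equal either. Such a neighbour was found for 17.9% of the strongest class of CARPO events and 10.3% of the weakest. Gaps between adjacent CARPO events were 31 at up to 50 bp, 145 at 51 to 100 bp, 173 at 101 to 150 bp and 102 at 151 to 200 bp. There were 45 CARPO groups of at least 3 events with steps of up to 500 bp, against 4 NAC33 groups. The CARPO group on chromosome 9 at 21158565 to 21158833 held 3 events and no NAC33 event, and its best rank was 7. The NAC33 group on chromosome 10 at 4605387 to 4605607 held 3 events with a best rank of 4, and 2 of them had a CARPO partner.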

How the data were processed

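Event lists in narrowPeak layout were deposited by the authors without a header and with decimal commas. GEM appears in the naming of the files. The submitters' processing notes name fastp 0.21.0 and Bowtie2 2.0, with no role. Build, annotation, control and filters are not given in the sources used here. Per the labels, each list compared was called from replicates r1 and r2 together. The deposited score (column 5) was not used. Column 7 of the deposited lists was read as a signal of event strength, and columns 8 and 9 as the −log10 p-value and −log10 q-value, capped at 999, from the values alone.

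Event positions were the interval start plus the offset, counted from 1. Partners lay within 100 bp on the same sequence. Ranks used strength, with ties by position. The span of a sequence was the highest event end in any list. Shares carry exact Clopper-Pearson 95% intervals, which treat events as independent and cover counting error only. With 1 list per factor no test between conditions was possible, and none was made. Named events were the strongest of each list and the 5 pairs with the best mean relative rank. The 5 strongest events per factor with no event of the other within 1000 bp were also named. In each direction, the unequal pairs were the 3 whose stronger event ranked best while its partner ranked after the median event of its list. The fullest 1 Mb windows were named likewise. Close groups of events were chosen after their values were seen. The comparison, the event rules and the alternatives were chosen with earlier results of these data known. Matching was tested in 10 rounds on simulated NAC33 lists of 5870 events at random positions, with a planted share of 30% near simulated CARPO events. The share found was 30.3% to 30.6%. On a random sample of the events of each round there were 0 mismatches with a direct search. Python 3.11.15, NumPy 2.4.6, pandas 2.3.3 and SciPy 1.17.1 were used.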

Additional observations from a re-analysis of the deposited data

Results flagged for a closer look

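Recurrence at 1000 of events with and without a partner differed with opposite signs in the 2 factors, within 3 of the 5 strength classes. In the third class the difference was -3.61 percentage points for CARPO and 23.1 for NAC33. In the fourth it was -0.34 for CARPO and 27.5 for NAC33, and in the weakest -6.60 for CARPO and 17.9 for NAC33. The counting intervals of CARPO events with and without a NAC33 partner overlapped in these 3 classes, so they settle no direction for CARPO. In the weakest class the interval with a partner was 4.20% to 14.3%, against 13.6% to 16.2% without, so they met only at their edges. That contrast between the 2 factors was not tested, as each had 1 list.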

How the results depend on the processing

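Of 72 values recomputed under alternatives, 34 stayed inside the 95% interval of the reported value (or within 1.5 times a count) and 38 did not; the cause was not tested. Each value below is that of the alternative. With a −log10 q-value limit of 4, there were 7758 CARPO and 1212 NAC33 events; partner shares were 5.05% (CARPO) and 31.2% (NAC33), the median partner distance 11 bp, the CARPO gap between strongest and weakest class 9.47 points, rho 0.51, the NAC33 gap in NAC03 partners 53.4, the recurrence gaps 14.3 (CARPO) and 28.3 (NAC33), the chr00 gap (NAC33 minus CARPO) 1.70 and the spacing gap 6.03. With the strongest 5870 CARPO events, partner shares were 14.2% (CARPO) and 13.7% (NAC33), the CARPO strength gap 18.0, rho 0.29, the NAC33 gap in NAC03 partners 71.6, the recurrence gaps 7.99 (CARPO) and 39.1 (NAC33), the chr00 gap -0.41, against 0.33 as reported, and the spacing gap 3.87. At 50 bp, partner shares were 6.93% (CARPO) and 17.2% (NAC33), the median distance 9 bp and the CARPO strength gap 12.1. At 250 bp they were 10.6%, 24.7% and 23 bp, with a NAC33 recurrence gap of 29.2. Overlap of intervals gave 10.3% (CARPO) and 24.1% (NAC33). Ranking by p-value gave a CARPO strength gap of 16.7 and rho of 0.24. Spacing gaps were 5.03 within 250 bp and 9.89 within 1000 bp. Recurring events alone, an alternative added after the data were seen, gave 24.9% for NAC33 and gaps in NAC03 partners of 48.7 (CARPO) and 65.7 (NAC33). Apart from the chr00 gap, no difference changed sign. No paired analysis was possible because replicates r1 and r2 were called together, so no replicate could be left out. Unknown depth limits every comparison of list lengths.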

Other observations

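Some strong CARPO events lacked a NAC33 partner labelled 500 and had one labelled 1000. Of the 82 CARPO events of the top 100 without a NAC33 partner, 13 (15.9%, 95% interval 8.72% to 25.6%) lay within 100 bp of an event of the NAC33 list labelled 1000. In that list 12 of these NAC33 events ranked in the top 100. Such a share was not particular to the top 100. It was 19.0% at ranks 101 to 500 and 16.2% at ranks 501 to 1000, against 5.46% of all CARPO events without a NAC33 partner. The CARPO event on chr00 at 7155535 (rank 4) met NAC33 labelled 1000 at 2 bp (rank 5), and that on chromosome 9 at 17381111 (rank 6) met it at 0 bp (rank 8). The nearest NAC33 events labelled 500 were 6040 and 143630 bp away. In the reverse direction, 0 of the 47 NAC33 events of the top 100 without a CARPO partner lay within 100 bp of CARPO labelled 1000. The exact 95% upper bound was 7.55% (6.38% by the limit of 3 counts of the total). Over all NAC33 events without a CARPO partner the share was 0.778%, so the count of 0 does not set the top 100 apart. The CARPO event of the best shared pair, on chromosome 13 at 12023114 (rank 5), had no event within 100 bp in the CARPO list labelled 1000, where the nearest lay 18063 bp away.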
